A study of Mus musculus with 3 samples.

Results

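Meis1, Meis2, Meis3, Pbx2, Pbx3 and Pbx4 encode homeodomain transcription factors, and the 6 genes were taken by name from the Smad3 and JMJD3 peak lists of mouse neural stem cells. All peaks that named a member as the gene with the closest transcription start site (TSS) were taken, together with any other peak centred within 50 kb of a member's TSS. This gave 112 of 98086 Smad3 peaks, of which 73 named a member, and 76 of 63154 JMJD3 peaks, of which 56 named a member. The genes were chosen by name and not by a measured value, although earlier results of these data were known.

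Both lists come from ChIP-seq, in which DNA pulled down with an antibody is sequenced, with 1 library per antibody. The cells were wild type, taken from the cerebral cortex of E12.5 embryos and kept with EGF and FGF. The Smad3 and JMJD3 samples had 5 ng/ml TGFb for 30 minutes, and an input sample without antibody was also labelled TGFb and is not used here. Both antibody libraries share the treatment and no library was labelled untreated, so nothing below shows an effect of TGFb. With 1 library per antibody, no value has a replicate error or a test. The lists hold positions only, with no height, enrichment or read number, so the depth behind a peak is unknown. They hold no expression values either, so the labelled cell type was not checked against markers, and whether a gene is transcribed in these cells is not known from them.

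Meis and Pbx proteins belong to the TALE class of homeodomain factors, so called for a loop extension of a few amino acids in the homeodomain. A Meis protein binds Pbx through its amino-terminal part, which helps to keep Pbx in the nucleus, and the dimers bind DNA together with Hox and other factors. In the forebrain Meis2 and Pbx proteins are known from the ventral progenitors and from neurogenesis. Smad3 carries the TGF-beta signal to chromatin, and JMJD3 removes methyl groups from lysine 27 of histone H3.

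The starts of these genes differed in how Smad3 and JMJD3 peaks lay over them. Promoter windows from RefSeq on GRCm38.p6, running from 250 bases before the start to 50 bases from it on, were given for 5 of the 6 genes. Of these, 4 are shown, since in the lists their starts stand for 3 arrangements. Meis1 and the inner Meis2 start had Smad3 over the start with JMJD3 set back upstream. Meis3 had Smad3 with no JMJD3, and Pbx4 had both over the start. The sequences run 5′ to 3′ along the gene's own strand. Capitals mark matches on either strand to CAGAC, the Smad box, or GGCGC, a GC-rich Smad element.

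Meis1: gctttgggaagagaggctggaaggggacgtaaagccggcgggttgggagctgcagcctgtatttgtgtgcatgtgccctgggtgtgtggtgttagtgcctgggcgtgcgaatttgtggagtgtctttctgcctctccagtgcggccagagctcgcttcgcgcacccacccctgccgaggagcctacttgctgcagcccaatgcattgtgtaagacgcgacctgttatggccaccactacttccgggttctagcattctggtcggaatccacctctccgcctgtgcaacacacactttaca

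Meis2: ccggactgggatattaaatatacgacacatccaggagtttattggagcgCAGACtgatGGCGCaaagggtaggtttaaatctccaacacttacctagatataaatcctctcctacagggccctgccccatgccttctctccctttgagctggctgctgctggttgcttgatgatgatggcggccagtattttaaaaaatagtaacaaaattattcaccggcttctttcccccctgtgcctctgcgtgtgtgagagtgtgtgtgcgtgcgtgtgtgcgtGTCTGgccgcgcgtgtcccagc

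Meis3: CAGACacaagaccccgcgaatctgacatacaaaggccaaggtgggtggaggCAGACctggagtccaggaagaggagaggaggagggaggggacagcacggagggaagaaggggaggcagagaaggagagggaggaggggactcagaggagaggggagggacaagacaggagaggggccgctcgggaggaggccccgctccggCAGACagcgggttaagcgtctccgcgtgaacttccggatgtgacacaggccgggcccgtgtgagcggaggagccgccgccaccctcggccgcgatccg

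Pbx4: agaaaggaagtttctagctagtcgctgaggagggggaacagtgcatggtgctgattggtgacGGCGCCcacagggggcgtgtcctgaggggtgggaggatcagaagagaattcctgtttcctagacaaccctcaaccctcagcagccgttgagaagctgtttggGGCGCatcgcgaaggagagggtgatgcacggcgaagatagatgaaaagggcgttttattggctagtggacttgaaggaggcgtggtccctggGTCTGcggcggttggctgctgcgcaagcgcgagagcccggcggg

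The Meis1 window lies at chr11:19018920-19019219 on the minus strand, that of Meis2 at chr2:116064570-116064869 on the minus strand, that of Meis3 at chr7:16175145-16175444 on the plus strand and that of Pbx4 at chr8:69832374-69832673 on the plus strand, all on GRCm38.p6. The files use mm9, and no coordinates were carried between the builds. Start sites were instead compared by their distance to the other end of the gene. It was 138542 bases on GRCm38.p6 and 138543 in the files for Meis1, and 203356 and 203359 for the inner of the Meis2 starts. For Meis3 it was 11116 and 11125, and for Pbx4 39669 and 39590. The Pbx2 window, 5142 against 4872 bases from the gene end, differed by 270 bases in this length, which may lie at either end of the gene, and is not printed.

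Matches to the searched letters varied among the windows. Meis1 held 0 matches to any of the motifs. Meis2 held 2 matches to CAGAC and 1 to GGCGC, and Meis3 held 3 matches to CAGAC. Pbx4 held 1 match to CAGAC and 3 to GGCGC, of which 2 come from a single stretch of GGCGCC that reads the same on both strands. Pbx2 held 2 matches to GGCGC. Among 32851 RefSeq windows of the same length, 49.6% held CAGAC and 36.9% held GGCGC, so a single match is common. The palindromic Smad element GTCTAGAC, the Meis core TGACAG and the Pbx-Hox core TGATTGAT had 0 matches in the 5 windows, where 0.213%, 19.2% and 0.746% of all windows hold them. Each motif was searched on both strands, and a match is a run of letters, not a site.

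All 6 genes had a Smad3 promoter peak, meaning a peak centred within 1 kb of the TSS that it names, and 5 of them also had a JMJD3 promoter peak. The gene without one was Meis3. Over 20953 coding genes, 55% had a Smad3 promoter peak, 43.3% a JMJD3 promoter peak and 41.9% both. With 6 genes the exact 95% binomial intervals run from 54.1% to 100% for Smad3 and from 35.9% to 99.6% for JMJD3 and for both, which cover counting error only. All of these intervals include the share of all coding genes.

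Smad3 lay on the start base itself at 5 of the 6 genes, all except Pbx3, and JMJD3 at 2 of its 5, Pbx2 and Pbx4. Meis2 counts here by the inner of its starts. The Smad3 region over that start lay 224 to 593 bp past the outer start. Among all coding genes with a promoter peak, 86.6% of the Smad3-bound and 89.5% of the JMJD3-bound genes had a peak over the start base. At Meis1, Meis2 and Pbx3, the genes with long loci, every JMJD3 promoter peak ended upstream of the start. These are 3 genes, and no test was made of the difference from other genes.

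**Figure D1:**
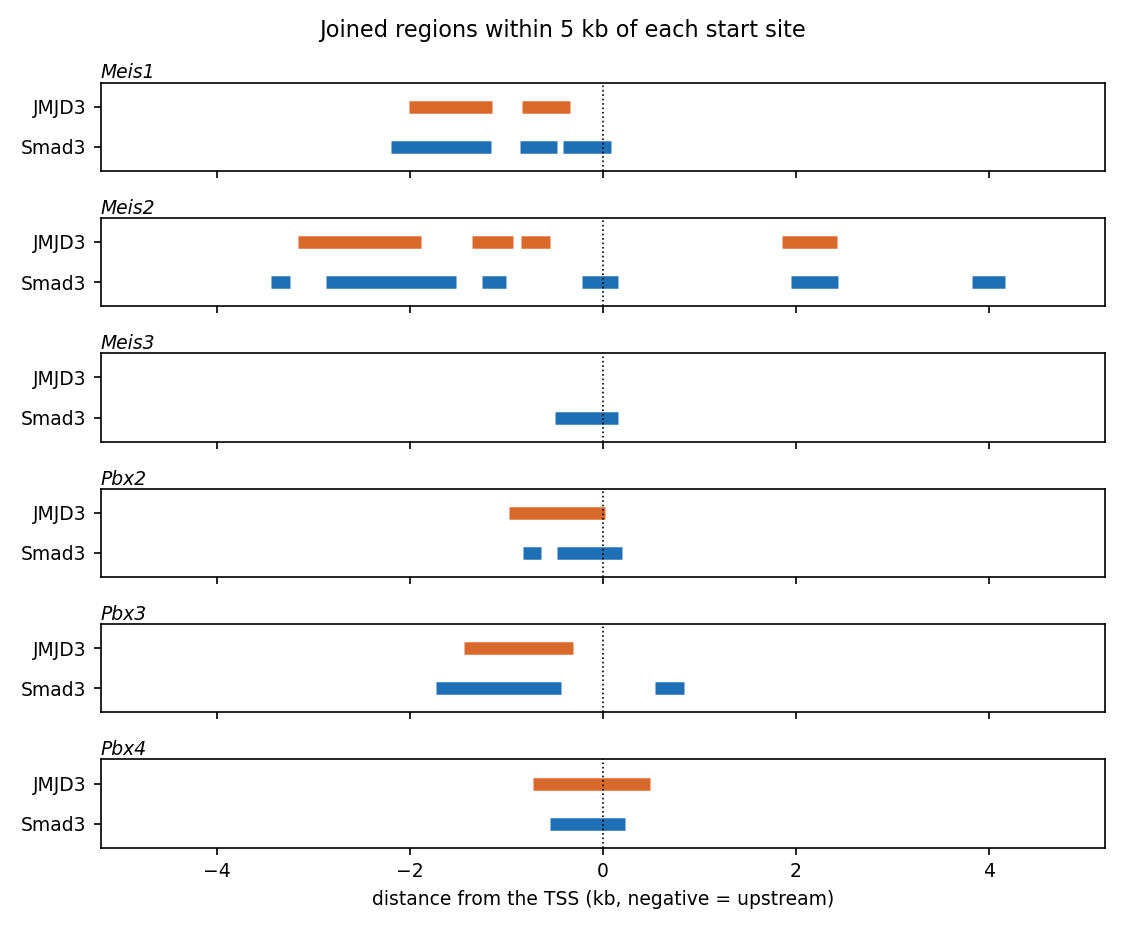
Smad3 (blue) and JMJD3 (orange) regions that name each gene within 5 kb of its TSS, with distance from the TSS in kb on the horizontal axis. For Meis2 the distances are from the inner of its 2 starts. JMJD3 bars cross the start at Pbx2 and Pbx4, lie upstream of it at Meis1 and Pbx3, and are missing at Meis3. At Meis2 they lie upstream of the start except for 1 bar from 1857 to 2426 bp past it.

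Positions, widths and counts from here on are those of the files, on mm9. Peaks of 1 list that lay at most 10 bp apart were joined into a region, and the width of a region is given with its percentile among all regions of that list. Width was used because the files give no strength, and it is an imperfect stand-in for enrichment. The median region was 450 bp wide for Smad3 and 640 bp for JMJD3.

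Meis1, known in mouse for its part in blood stem cells and in leukaemia with Hox genes, lies on the minus strand of chromosome 11 (Entrez 17268, TSS 18918972). A Smad3 region of 490 bp, at 18918891 to 18919380 and at percentile 55.6, reached from 408 bp upstream of the start to 81 bp past it. It covered the whole window of 300 bases from 250 before the start. The JMJD3 promoter region of 500 bp, at 18919311 to 18919810 and at percentile 27.7, ended 339 bp upstream of the start and covered none of that window. Another Smad3 region, of 391 bp (percentile 40.1), lay from 859 to 469 bp upstream and overlapped the same JMJD3 region. A further pair stood higher up, with 1030 bp for Smad3 (percentile 91.8) and 860 bp for JMJD3 (percentile 74.0), between 2188 bp and 1149 bp upstream of the start. These were the widest regions of either factor within 5 kb of the start.

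Meis2, which acts in mouse with Pax6 and Dlx2 in the making of olfactory bulb neurons, lies on the minus strand of chromosome 2 (Entrez 17536). The files give it 2 starts, at 115890357 and 115890794. A Smad3 region of 370 bp crossed the inner start, from 213 bp upstream to 156 bp downstream, with no JMJD3 overlap. At the outer start, a JMJD3 region of 300 bp (percentile 3.27) lay from 406 bp to 107 bp upstream and had no Smad3 overlap. Between 1087 and 2426 bp upstream of the outer start lay a Smad3 region of 1340 bp, at 115891881 to 115893220 and at percentile 96.8. It overlapped a JMJD3 region of 1270 bp at 115892241 to 115893510, at percentile 92.9. These were the widest regions of Meis2 for both factors, and both lay outside the 1 kb window.

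Pbx3, which mice need to breathe at birth, lies on the minus strand of chromosome 2 (Entrez 18516, TSS 34227556). Neither factor had a peak in the window from 250 bases before the start to 49 after it. Upstream lay a Smad3 region of 1290 bp, at 34227991 to 34229280 and at percentile 96.3, and a JMJD3 region of 1131 bp, at 34227861 to 34228991 and at percentile 89.3. Their lower edges were 435 bp and 305 bp upstream of the start. A Smad3 region of 300 bp lay inside the gene, from 546 to 845 bp past the start, with no JMJD3 overlap.

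Pbx2, on the plus strand of chromosome 17 (Entrez 18515, TSS 34729415), had its peaks at the promoter alone. A JMJD3 region of 1000 bp at 34728441 to 34729440, at percentile 83.5, ran from 974 bp upstream to 25 bp past the start. It overlapped 2 separate Smad3 regions, 670 bp over the start (percentile 74.4) and 191 bp farther upstream (percentile 4.30). The wider of these ran to 195 bp past the start, beyond the edge of the JMJD3 region. Mice without Pbx2 are known to develop without overt defects.

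Pbx4, known from the mouse testis, had 1 peak for each factor (chromosome 8, plus strand, Entrez 80720, TSS 72356602). The Smad3 peak was 770 bp wide, at 72356061 to 72356830 and at percentile 81.3, and the JMJD3 peak was 1210 bp wide, at 72355881 to 72357090 and at percentile 91.6. The JMJD3 peak contained the Smad3 peak whole and was 1.57 times as wide. It was the widest JMJD3 promoter region of the 6 genes.

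Meis3, which patterns the hindbrain in Xenopus, had 3 Smad3 peaks and 0 JMJD3 peaks (chromosome 7, plus strand, Entrez 17537, TSS 16760728). The Smad3 peaks stood 10 bp apart and formed 1 region of 660 bp at 16760231 to 16760890, at percentile 73.6. It reached from 497 bp upstream to 162 bp past the start and so spanned the whole 300-base window. Its peaks alone, without the gaps between them, covered 97.0% of that window. The JMJD3 peak closest to this start was centred 25893 bp upstream and named Slc8a2, a sodium-calcium exchanger gene. In joined width this Smad3 region stood between those over the starts of Meis1 and Pbx2, both of which had JMJD3 in their promoters. Those regions were single peaks of 490 and 670 bp, whereas the Meis3 peaks were 171, 201 and 270 bp wide.

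The 6 genes fell into 3 with many peaks and 3 with few. Meis1 was named by 32 peaks of Smad3 and 31 of JMJD3, Meis2 by 24 and 12, and Pbx3 by 11 and 10. Meis3, Pbx2 and Pbx4 had 3, 2 and 1 Smad3 peaks and 0, 2 and 1 JMJD3 peaks. The median gene named in a list had 3 peaks in each. In the Smad3 list 98.0% of named genes had fewer peaks than Meis1, and in the JMJD3 list 99.3% did. For Meis2 these shares were 96.0% and 91.7%, and for Pbx3 84.5% and 88.3%.

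**Figure D2:**
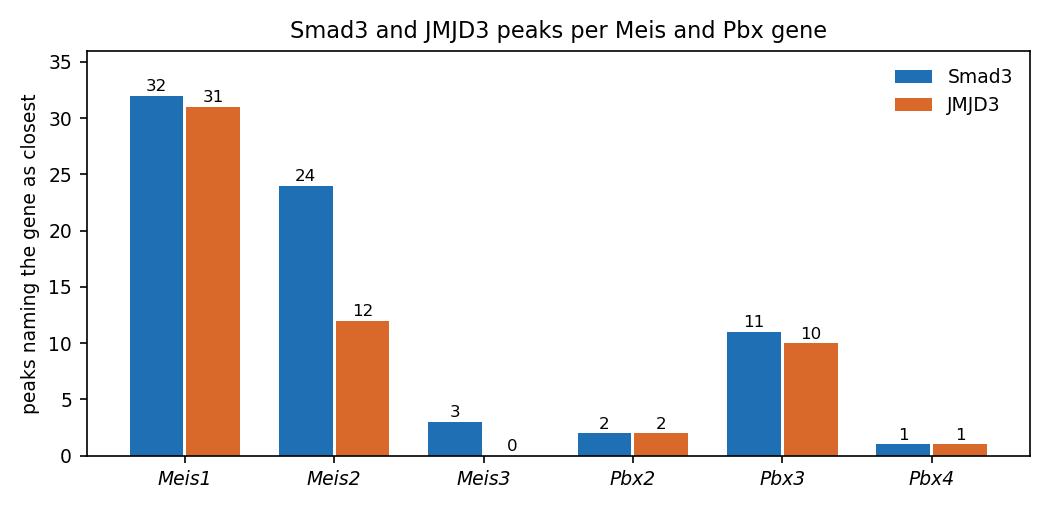
Number of Smad3 (blue) and JMJD3 (orange) peaks that name each gene as closest, with the count above each bar. Meis1 has 32 and 31, Meis2 24 and 12, Pbx3 11 and 10, and no other gene has more than 3.

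A count of closest peaks grows with the stretch of genome for which a gene is the closest, taken here as reaching midway to the neighbouring TSS named in the lists. For Meis1 this stretch was 985.3 kb, and its density was 3.25 Smad3 and 3.15 JMJD3 peaks per 100 kb. Over all named genes the densities were 3.82 and 2.46. Meis1 therefore had many peaks but a Smad3 density a little below that of all genes, and a JMJD3 density above it. Meis2, with 218.9 kb, had 11.0 Smad3 and 5.48 JMJD3 peaks per 100 kb, both above those of all genes. Pbx3, with 272.0 kb, had 4.04 and 3.68. Pbx2 had only 6.88 kb, Pbx4 32.4 kb and Meis3 45.9 kb, where so few peaks give no useful density.

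Most peaks of Meis1 lay far from its start. Of its Smad3 peaks 27 of 32, and of its JMJD3 peaks 28 of 31, were centred more than 50 kb from the TSS. For Meis2 the numbers were 10 of 24 and 4 of 12, and for Pbx3 3 of 11 and 4 of 10. Taken over the 6 genes, 54.8% of the Smad3 and 64.3% of the JMJD3 peaks lay beyond 50 kb, against 28.6% and 31.8% of all peaks in the lists. Within 1 kb lay 12 of the 73 Smad3 and 7 of the 56 JMJD3 peaks of the genes, against 25.4% and 25.2% of all. Meis1 held 27 of the 40 Smad3 and 28 of the 36 JMJD3 peaks beyond 50 kb, and it also has the longest stretch.

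**Figure D3:**
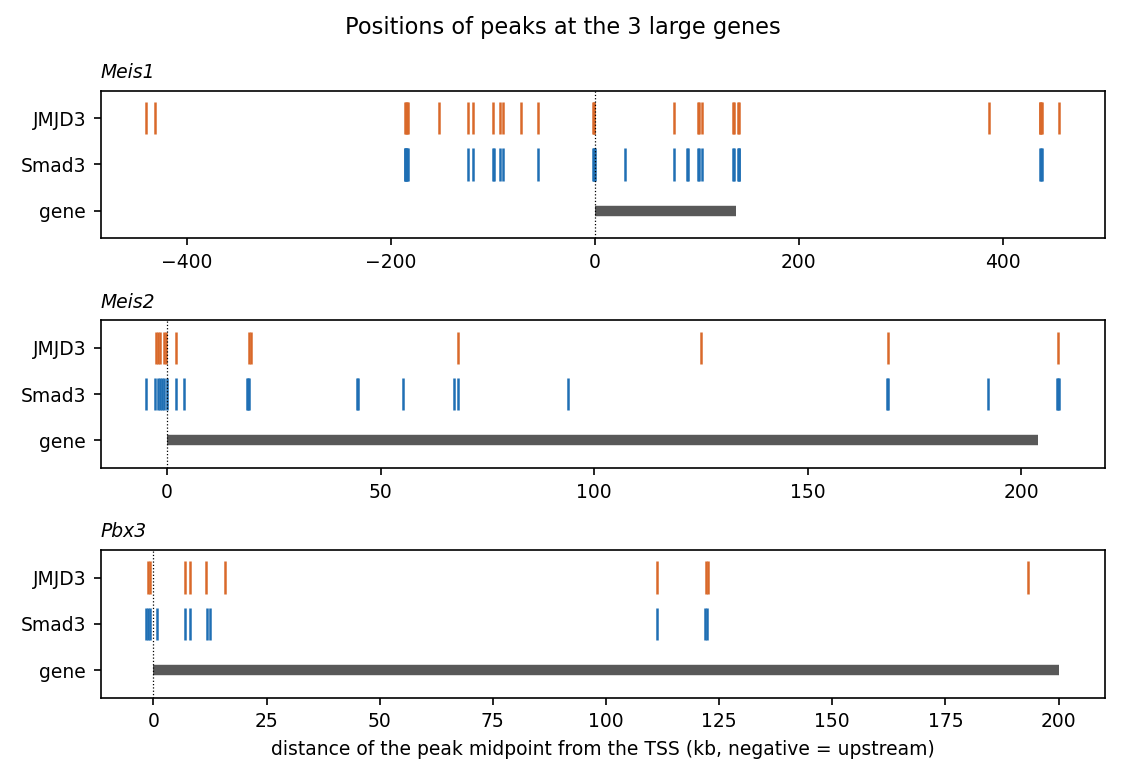
Midpoints of Smad3 (blue) and JMJD3 (orange) peaks that name Meis1, Meis2 or Pbx3, against distance from the TSS in kb, with the gene body as a grey bar. The horizontal scales differ. Meis1 peaks reach 455.0 kb past the start and 439.7 kb upstream, whereas those of Meis2 and Pbx3 lie in or close to the gene.

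Some of the far peaks of Meis1 came in clusters on both sides of the gene, but most lay outside the clusters described here. Between 183.3 and 186.2 kb upstream, at 19102041 to 19105340, stood 6 Smad3 and 4 JMJD3 peaks. They included the widest Smad3 region of the gene, 1460 bp at 19103881 to 19105340 (percentile 97.8), which held 2 JMJD3 regions of 430 and 780 bp. A second cluster, of 3 Smad3 and 4 JMJD3 peaks, lay 436 to 438 kb past the start. That is well beyond the gene end, which is 138543 bp from the start. This cluster included the widest JMJD3 region, 1350 bp at 18480811 to 18482160 (percentile 94.5), which contained 911 bp of Smad3 regions. Just past the gene end, 140.9 kb from the start, lay another shared site with 901 bp of Smad3 and 1060 bp of JMJD3. Being closest to Meis1 does not show that a peak acts on Meis1.

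Within the Meis1 body, 6 sites had both factors, from 77.9 kb to 135.9 kb past the start, and 3 had Smad3 without JMJD3. The latter stood 29.1, 90.8 and 91.5 kb past the start, with widths of 540, 240 and 450 bp. JMJD3 without Smad3 occurred at 6 Meis1 sites, all outside the gene body. They lay 72.6, 153.0, 430.9 and 439.7 kb upstream and 386.4 and 455.0 kb past the start, and were 210 to 511 bp wide. All 6 were narrower than the median JMJD3 region of 640 bp.

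A site is here a stretch of overlapping Smad3 and JMJD3 regions, or a region of 1 factor alone. The 6 genes had 59 sites, of which 34 held both factors, 15 Smad3 alone and 10 JMJD3 alone. The share with both was 57.6% (exact 95% binomial interval 44.1% to 70.4%), against 47.2% of 75720 sites in all. Meis1 had both at 19 of 28 sites (67.9%, 47.6% to 84.1%), and Meis2 at 7 of 18 (38.9%, 17.3% to 64.2%). At Pbx3 it was 6 of 10 sites (26.2% to 87.8%). These intervals cover counting error only and treat sites as independent, although some sites of a gene lie close together. The shares were not tested against that of all sites.

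Sites with a single factor leaned differently at the large genes. Meis2 had 9 sites with Smad3 alone and 2 with JMJD3 alone, and Meis1 had 3 and 6. Pbx3 had 2 of each. Over all sites, 41.9% held Smad3 alone and 10.9% JMJD3 alone. The numbers per gene are small, neighbouring sites share a locus, and the difference between the genes was not tested.

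**Figure D4:**
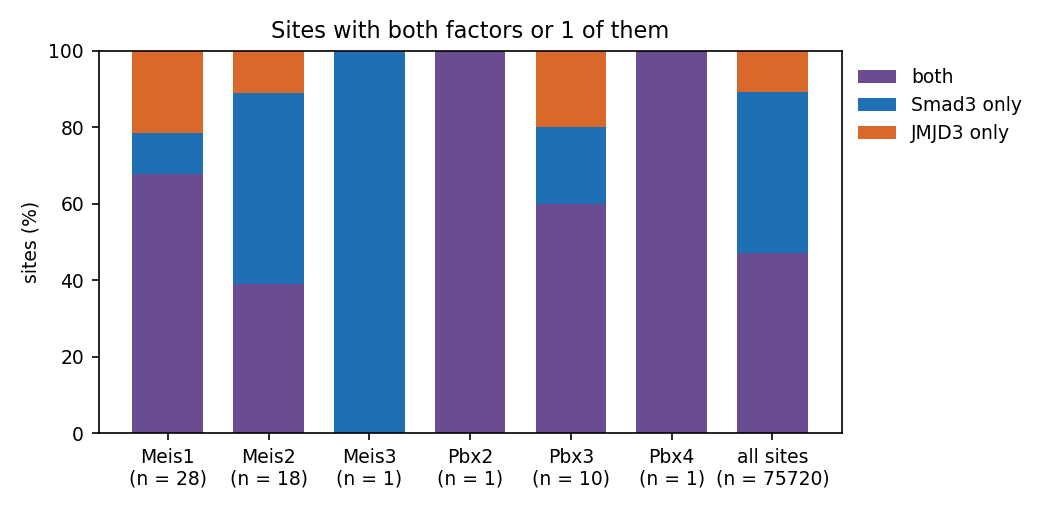
Share of sites in percent with both factors (purple), Smad3 alone (blue) or JMJD3 alone (orange) for each gene and for all sites of the lists, with the number of sites under each bar. Smad3 alone makes up 9 of 18 sites at Meis2 and 3 of 28 at Meis1. Meis3, Pbx2 and Pbx4 have 1 site each.

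In peaks, 77 of the 112 Smad3 peaks of the Meis and Pbx loci overlapped a JMJD3 peak by at least 1 bp (68.8%, exact 95% binomial interval 59.3% to 77.2%), against 60.2% of the whole list. Of the 76 JMJD3 peaks, 62 overlapped a Smad3 peak (81.6%, 71.0% to 89.6%), against 81.4% of the whole list. Both intervals include the share of the list, and peaks of 1 region are not independent. These peaks include those that name neighbouring genes. Among peaks naming a member, 74.0% of Smad3 peaks overlapped JMJD3 and 78.6% of JMJD3 peaks overlapped Smad3. No interval was computed for these peaks alone. By gene, 29 of 32 Smad3 peaks at Meis1 overlapped JMJD3, 13 of 24 at Meis2 and 9 of 11 at Pbx3. Among Smad3 peaks of the 6 genes beyond 50 kb, 34 of 40 overlapped JMJD3 (85.0%), where 60.8% of all such Smad3 peaks did. Of these, 25 of 27 were at Meis1, 6 of 10 at Meis2 and 3 of 3 at Pbx3. Within 1 kb the order was the other way, with 7 of 12 Smad3 peaks (58.3%) against 70.9% of all. For JMJD3 peaks beyond 50 kb it was 27 of 36 (75.0%), close to the 75.2% of all.

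In base pairs, the share of Smad3 cover that lay under JMJD3 was 77.4% at Meis1, 69.2% at Pbx3 and 48.5% at Meis2. The share of JMJD3 cover under Smad3 was 64.6%, 58.7% and 66.1% in the same order. Over the whole lists the shares were 58.2% and 69.0%. Meis2 had the lowest share of Smad3 cover under JMJD3 of the 3 large loci and the highest share of JMJD3 cover under Smad3, and these differences were not tested.

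A shared site can hold several regions of a factor, so their widths were summed per factor and site. JMJD3 had more base pairs than Smad3 at 21 of the 34 shared sites, and Smad3 more at 13. The median ratio of JMJD3 to Smad3 base pairs was 1.17, against 1.12 over all shared sites, where JMJD3 had more at 64.3%. At Meis1 JMJD3 had more at 13 of 19 sites (median ratio 1.19), and at Meis2 at 3 of 7 (median ratio 0.948). The highest ratio was 3.32, at a Meis1 site 100.8 kb past the start with 190 bp of Smad3 and 630 bp of JMJD3. The lowest was 0.568, at the Meis1 promoter, where 500 bp of JMJD3 met 881 bp of Smad3 in its 2 regions of 490 and 391 bp.

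**Figure D5:**
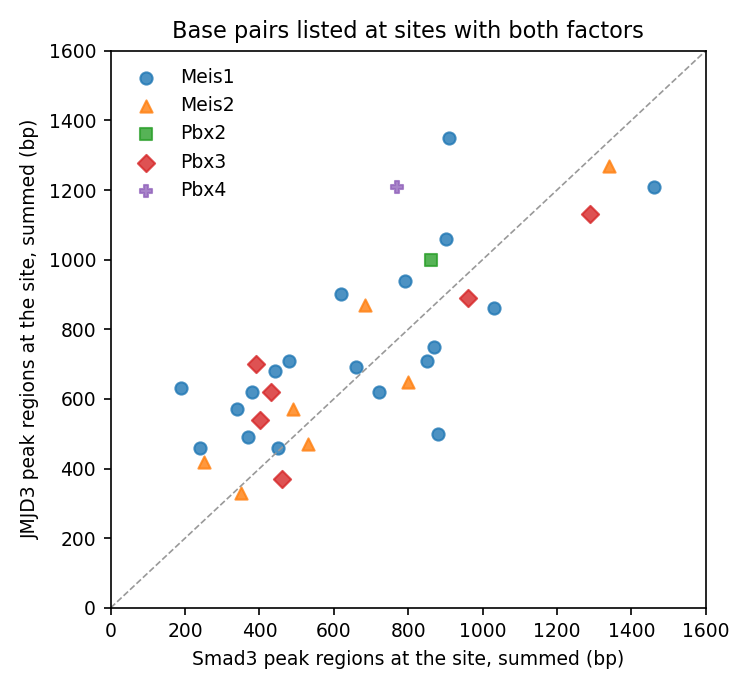
Summed width of the Smad3 regions (horizontal, bp) against that of the JMJD3 regions (vertical, bp) at each of the 34 sites with both factors, 1 point per site and 1 symbol per gene, with a dashed line of equal sums. Points above the line, 21 of 34, have more JMJD3 base pairs. Pbx4 lies at 770 and 1210 bp.

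Inside Meis2, Smad3 alone was listed at 6 sites from 4.00 to 192.1 kb past the starts, and both factors at 4. The widest shared site in the gene body lay 19.2 kb past the start, with 683 bp of Smad3 and 870 bp of JMJD3. A further shared site, 800 bp of Smad3 and 650 bp of JMJD3, stood 208.5 kb past the start, just beyond the gene end. Inside Pbx3, shared sites stood 6.96, 7.99, 11.7, 111.3 and 122.2 kb past the start. The last had 960 bp of Smad3 and 890 bp of JMJD3. A JMJD3 region of 740 bp without Smad3 lay 193.2 kb past the start, near the end of the gene.

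Peaks within 50 kb of a start that named other genes numbered 39 for Smad3 and 20 for JMJD3. Of these, 24 and 11 lay around Pbx2 and named 9 neighbours, against 2 and 2 peaks that named Pbx2. The widest of the Pbx2 surroundings belonged to Gpsm3, a modulator of G protein signalling whose start lies 2665 bp upstream of that of Pbx2, with 1520 bp for Smad3 and 1610 bp for JMJD3. Rnf5, a ubiquitin ligase gene, followed with 1351 and 1500 bp. At Ppt2, a thioesterase gene, 4 Smad3 peaks and 0 JMJD3 peaks were listed in this window. Both factors were listed at Notch4, a Notch receptor gene, and at Agpat1, an enzyme of phospholipid synthesis.

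Around the other genes the neighbours were few. Meis1 had 0 peaks within 50 kb that named another gene. Near Meis3, 6 Smad3 and 5 JMJD3 peaks named Slc8a2 and all overlapped the other factor, while 1 Smad3 peak without JMJD3 named Dhx34. Near Pbx4, 3 Smad3 peaks and 1 JMJD3 peak named Atp13a1, and 1 Smad3 peak named Lpar2. The Mapkap1 peaks near Pbx3 were 1 for Smad3 and 2 for JMJD3, and 2810405F15Rik near Meis2 had 2 Smad3 peaks. At the limit itself, the last peaks inside stood 49.6 kb (Smad3, 170 bp wide) and 49.5 kb (JMJD3, 410 bp) from Pbx4 and named Cilp2. The first peaks outside stood 52.4 kb (Smad3, 610 bp) and 52.3 kb (JMJD3, 471 bp) from Pbx2 and named Fkbpl.

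Other TALE genes and a Pbx partner also had promoter peaks. Of 12 such genes, 9 had a Smad3 promoter peak, 8 a JMJD3 promoter peak and 8 both, to be read against the 55%, 43.3% and 41.9% of all coding genes. Tgif1 and Tgif2, which encode corepressors of Smad proteins, had both. Their Smad3 regions were 1250 and 1901 bp wide and their JMJD3 regions 2310 and 2130 bp. The latter, at percentiles 99.6 and 99.4, were wider than any promoter region of the 6 Meis and Pbx genes. Pknox1, a Pbx partner related to Meis, had 1670 and 1250 bp, and Pbxip1, whose product binds Pbx, 1460 and 1500 bp.

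The remaining genes of that list varied. Pknox2 had a Smad3 region of 681 bp and no JMJD3 promoter peak, as at Meis3. The nearest JMJD3 peak that named Pknox2 was, however, centred 1285 bp past the start. Mkx, Irx3, Irx5 and Irx6 had both factors, at widths of 251, 530, 1000 and 550 bp for Smad3 and 681, 1010, 840 and 720 bp for JMJD3. Irx1, Irx2 and Irx4 had neither at the promoter. The nearest Smad3 peaks that named them were centred 137050, 140432 and 100037 bp from the start. Peaks that named other genes were not searched for these distances.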

How the data were processed

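The submitters' processing notes list mm9 as the build and the programs MACS 1.4, Bowtie 0.12.7 and CASAVA. How peaks were thresholded and what the input served for is not given in the sources used here. In the deposited files there is, per the file headers, 1 row per peak with positions and the signed distance from the closest TSS. The deposited distance lay within 4 bp of the peak midpoint minus the TSS in 100% of rows.

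With Python 3.11.15, pandas 2.3.3, numpy 2.4.6, scipy 1.17.1 and matplotlib 3.10.9, peaks at most 10 bp apart were joined, overlaps counted from 1 bp, and exact Clopper-Pearson 95% intervals given, which cover counting error only. Interval code was tested on simulated data. The 20953 background genes are those that code for protein and have a curated transcript on an autosome or X in a RefSeq table of GRCm38.p6, matched on Entrez ID. That table gave no coordinates for the peaks.

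The members, the list of other TALE genes and the motifs were chosen with earlier results of these data known. The named genes are the 6 members, the 12 listed genes, and neighbours that peaks within 50 kb name. With no score in the files, width took the place of strength. The cover of start bases, peak densities and single-factor sites were looked at after the data were seen.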

Additional observations from a re-analysis of the deposited data

How the results depend on the processing

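Counts of members with promoter peaks moved only when peaks were limited to the wider 50% of regions, where 3 genes kept JMJD3 and 3 both, and 5 kept Smad3. Windows of 2.5 and 5 kb, and any peak within 1 kb whatever gene it names, gave 6, 5 and 5 for Smad3, JMJD3 and both, as reported. A reciprocal overlap of 50% lowered the overlapping shares to 42.0% of Smad3 and 61.8% of JMJD3 peaks, by construction of the stricter rule, and midpoints within 200 bp gave 52.7% of Smad3 peaks. The same rules gave 37.4% and 58.2%, and 47.7% of Smad3 peaks, in the whole lists. Smad3 peaks naming a member were 73, or 43 in the wider 50% of regions and 33 within 50 kb, and JMJD3 peaks 56, or 30 and 20. Median region widths of 430 bp (Smad3) and 620 bp (JMJD3) became 340.5 and 490 bp without joining. Of the 34 alternatives, 23 kept the value within its interval or within 1.5 times of the count. No paired analysis was possible because each antibody has 1 library and no result comes from a test. The files give no depth, so a gene without a listed peak, such as Meis3 for JMJD3, may hold binding below the threshold of the peak caller.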
